A study of Mus musculus with 34 samples.

Results

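H3K9me3 was compared between 2 mouse embryonic stem cell lines of DBA/2J (D2) background, over regions off chromosomes 11 and 13. The line D2 5-5 has the DBA/2J genotype (2 libraries), and the line XE 2-4, called D2-13B6, is D2 with a C57BL/6J (B6) segment of chromosome 13 (3 libraries). The sample labels give D2-13B6 the genotype D2.B6-(rs29224292-rs13469455)/Bakr, and the series' design text ends the segment at rs51756099 instead. Chromosomes 11 and 13 were set aside because H3K9me3 shifted over each as a whole: the median log2 value of D2 minus D2-13B6 was -0.49 on chromosome 11 and 0.27 on chromosome 13. The comparison therefore covered 220686 of the 248336 regions of the deposited H3K9me3 table, of which 76007 had enough reads to be tested. A positive log2 difference is a higher level in D2 throughout, and off the segment both lines carry D2 chromosomes according to their genotypes.

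The series holds 34 chromatin immunoprecipitation libraries in 12 groups, of H3K9me3 or H3K27ac, from stem cells kept in serum with LIF, the MEK inhibitor PD0325901 and the GSK3 inhibitor CHIR99021. Groups used beside the main pair were the same marks in B6 5-1 (C57BL/6J) and in QJ 6-1, called B6-13D2, a C57BL/6J line with a D2 segment of chromosome 13, B6.D2-(rs30079041-rs51756099)/Bakr. A further set held H3K9me3 from 3 separate D2 lines (2-9, 5-5 and 203) and 3 separate B6 lines (4-1, 4-4 and 5-1). The repeats of the main pair are technical libraries of 1 cell line each, so p-values compare these lines over a spread that may be technical, and do not compare genotypes across lines. D2-13B6 replicate 1 stood apart in both marks: chi-square per degree of freedom against its other 2 H3K9me3 libraries was 2.455 and 2.467, where these differed by 1.211 from each other and the 2 D2 libraries by 1.553.

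H3K9me3 is trimethylation of lysine 9 of histone H3, a mark of constitutive heterochromatin that HP1 proteins read. In embryonic stem cells it is laid down at endogenous retroviruses and other transposable elements largely by SETDB1, which KRAB zinc finger proteins recruit through TRIM28 after binding short DNA sequences. H3K27ac, acetylation of lysine 27 of the same histone, marks active promoters and enhancers and is usually low where H3K9me3 is high.

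The regions with more H3K9me3 in D2 shared a DNA sequence that was not found in the regions with more in D2-13B6. An 18-base sequence, AGACCTCTGGTGAGTGGA, searched on both strands and part of the longer stretch described next, lay in 662 of the 1133 regions called higher in D2 (58.4%), in 0 of the 176 called higher in D2-13B6, and in 2216 of all 76007 tested (2.92%). Regions differ in width, so windows of 300 bases at the centre of each region were also read. The sequence lay in 449 of 937 such windows of regions higher in D2 (47.9%), in 0 of 160 of those higher in D2-13B6, and in 1438 of 70194 overall (2.05%). It was found by counting words in regions called in this same comparison, so the H3K9me3 values of its holders are a description. The 5 copies below come from the holders with the largest differences among well covered regions, and are shown because they let the sequence around the 18 bases be compared. Each runs 5′ to 3′ over 100 bases of GRCm38.p6, the RefSeq copy of mm10, with the 18 shared bases in capitals.
near Adgrl3, chr5:82307779-82307878, minus strand: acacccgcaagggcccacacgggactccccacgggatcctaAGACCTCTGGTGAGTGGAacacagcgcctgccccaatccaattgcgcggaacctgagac
near Grxcr1, chr5:68220426-68220525, minus strand: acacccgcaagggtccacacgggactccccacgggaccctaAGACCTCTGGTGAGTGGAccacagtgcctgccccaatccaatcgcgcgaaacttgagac
Pcca intron, chr14:122777362-122777461, minus strand: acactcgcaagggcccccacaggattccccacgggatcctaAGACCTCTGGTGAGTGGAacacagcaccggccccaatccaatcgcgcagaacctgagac
near Efcab2, chr1:178503909-178504008, minus strand: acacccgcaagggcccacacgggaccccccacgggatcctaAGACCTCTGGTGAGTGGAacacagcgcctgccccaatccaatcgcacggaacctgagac
Alpk1 intron, chr3:127772731-127772830, plus strand: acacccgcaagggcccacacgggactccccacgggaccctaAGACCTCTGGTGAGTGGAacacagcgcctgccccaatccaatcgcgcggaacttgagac
Compared with the first, the other 4 matched at 93, 92, 97 and 97 of the 100 bases, in the order printed.

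The shared sequence ran beyond the 18 bases. Regions called higher in D2 that hold them had 382 words of 18 bases in common, each present in at least 20% of those regions, and 782 of the 1133 regions higher in D2 (69.0%) held at least 10 of these words, called the longer stretch here. Among all tested regions 2894 did (3.81%), and among those higher in D2-13B6 none of the 176 did. The genome's soft-masked bases, which mark repeats, covered a median of 95.6% of the 2216 holders against 20.6% of all tested regions. Holders lay mostly between genes (72.7%, against 46.0% of tested regions), and 1 of them lay within 1 kb of a gene's start. The sequence thus recurs at masked positions of the reference genome, and its repeat family was not assigned here. How reads matching several near-identical copies were placed is not given in the sources used here, so a value at a single copy is uncertain where its neighbours in sequence could take the same reads.

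H3K9me3 over the 2216 holders was lower in D2-13B6 in every library and on every chromosome with enough of them. The median holder stood at 13.4 and 11.6 scaled CPM (counts adjusted for library size with edgeR's TMM scaling) in the 2 D2 libraries, and at 6.30, 5.23 and 5.62 in the 3 D2-13B6 libraries. Every D2 library was above every D2-13B6 library, and the means of these library medians were 12.5 ± 1.27 (SD, n = 2) and 5.72 ± 0.542 (SD, n = 3). The B6 line resembled D2 in level, at 12.2 to 13.1, and B6-13D2 was at 15.1 and 15.6, so D2-13B6 was the low line among the 4. Over the 73109 tested regions without the 18 bases or the longer stretch, D2 stood at 8.29 ± 0.332 (SD, n = 2) and D2-13B6 at 8.25 ± 0.172 (SD, n = 3), a difference smaller than the spread between libraries.

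**Figure D1:**
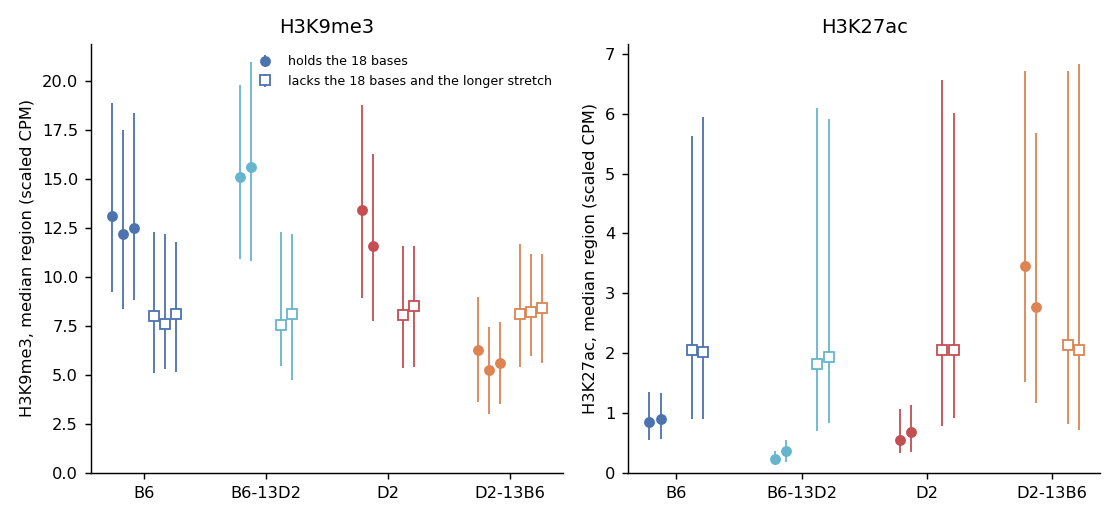
Median scaled CPM per library (points, with bars from the lower to the upper quartile of regions) for H3K9me3 and H3K27ac in the 4 lines, for regions that hold the 18 bases (filled) and regions that lack them and the longer stretch (open). Holders sit between 5.23 and 6.30 in the D2-13B6 libraries for H3K9me3, below the other lines, and at 2.77 and 3.46 for H3K27ac, above the other lines.

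Most single holders shared the direction of the median. Their median log2 difference was 1.09, 95.8% of them were above 0, 662 were called higher in D2 and 0 were called higher in D2-13B6. The 1554 holders that did not pass the test still had a median of 0.89, and their median read count was 9.0 per library, which limits what a single region can show. The count of called holders fell to 204 without D2 replicate 1, 438 without D2 replicate 2 and 399 without D2-13B6 replicate 2, while the median stayed between 0.99 and 1.21 with any 1 library left out. By number of copies of the 18 bases, with no test of a trend, the median log2 difference was 1.06 with 1 copy (1461 regions), 1.15 with 2 (593), 1.14 with 3 (120), 1.26 with 4 (32) and 1.4 with 5 or more (10). Wider regions hold more copies and more reads, and the last of these groups is small. Over the 18 chromosomes with at least 20 holders, the median ranged from 0.90 to 1.22, so no chromosome carried the difference alone. For comparison, 8279 regions that were at least 80% masked but lacked both the 18 bases and the longer stretch had a median of 0.10, with 60 called higher in D2 and 18 higher in D2-13B6. Both sequences were found in regions called higher in D2, so this contrast is partly fixed by that choice.

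H3K27ac, measured in other libraries and not used to find the sequence, moved the opposite way at the holders. The median holder had 0.556 and 0.682 scaled CPM in the 2 D2 samples and 3.46 and 2.77 in the 2 D2-13B6 samples, with no overlap between the lines. In D2 replicate 2, at 0.682, a count of 3 reads was about 0.343 CPM, so the D2 level of a single holder rested on few reads. In edgeR's quasi-likelihood test, 1631 of the 2043 holders with enough H3K27ac reads (79.8%) were higher in D2-13B6, where 8.50% of all H3K9me3-tested regions were, and 0 were higher in D2. The median log2 difference in H3K27ac was -2.26. Of the holders not called in H3K9me3, 1035 of 1393 were also called higher in D2-13B6 for H3K27ac. By copy number, with no test of a trend and with wider regions and more reads at higher numbers, the median H3K27ac difference was -2.17 with 1 copy and -2.31, -2.63, -2.91 and -3.61 with 2, 3, 4 and 5 or more. Over the same 18 chromosomes its median ranged from -2.52 to -2.10. In masked regions without the sequence 617 of 6563 (9.40%) were higher in D2-13B6.

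The other congenic pair, in B6 background, showed the H3K27ac difference at holders and a smaller H3K9me3 one. B6-13D2 minus B6 compares the same direction of segment, D2 over B6, on the other background, in libraries not shared with the main pair. The median holder's H3K27ac was 0.852 and 0.896 CPM in the B6 samples and 0.233 and 0.369 in the B6-13D2 samples, and 1105 of 2043 (54.1%, against 8.40% of all regions) were called lower in B6-13D2, with 0 called higher. In B6-13D2 replicate 2, at 0.369, a count of 3 reads was about 0.273 CPM, so the low side was near the floor. For H3K9me3 the median log2 difference at holders was 0.15, with 174 called higher in B6-13D2 (7.85%, against 0.872% of all regions) and 0 higher in B6. The difference between the 2 backgrounds was called, with the larger gap in D2 background, at 167 of the 2216 holders (7.54%, against 0.317%). The sequence was found in regions called in D2 background, which partly fixes that direction: 163 of the 167 were among the 662 called holders and 4 among the 1554 others. Among separate lines, holders were at 15.9 ± 0.52 in D2 and 13.0 ± 0.702 in B6 (SD, n = 3 lines each), with a median log2 difference of 0.27. Of 1905 holders 398 were called higher in D2, where 16.3% of all regions were, and 114 higher in B6, where 17.8% were.

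**Figure D2:**
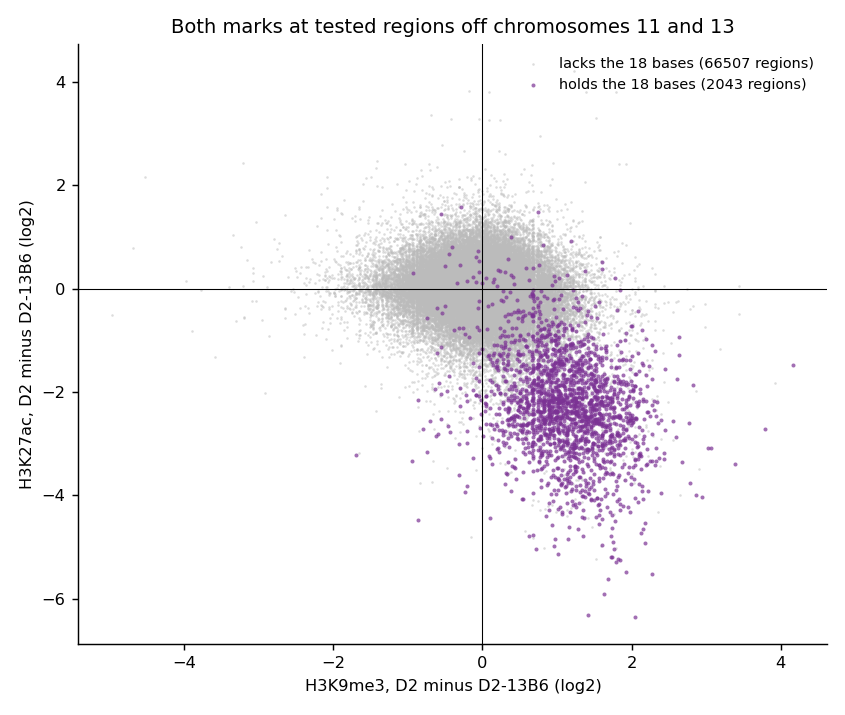
H3K9me3 log2 difference (x axis) against H3K27ac log2 difference (y axis), D2 minus D2-13B6, for tested regions off chromosomes 11 and 13. Holders of the 18 bases lie to the lower right, around a median of 1.09 for H3K9me3 and -2.26 for H3K27ac, while the other tested regions centre near 0 on both axes.

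Over all tested regions, whatever their sequence, the differences ran mostly one way. Of 76007 regions, 1309 were called at an adjusted p under 0.05 (1.72%, against 2.20% with chromosomes 11 and 13 included), 1133 higher in D2 (1.49%) and 176 higher in D2-13B6 (0.232%), by edgeR's quasi-likelihood test with Benjamini-Hochberg adjustment over the whole table. The 5 libraries did not overlap between the lines at 1107 of the 1133 and 174 of the 176, where 23.4% of all tested regions showed no overlap. The calls were made on these same libraries, so this follows largely from the calls and adds no support to them. The 5 libraries held 1538145 to 2185977 counts, and the median tested region had a mean of 10 counts per library, so only the larger differences could be called at most regions: 0.468% of regions with under 5 counts were called and 5.99% of those with 80 or more. The excess toward D2 was not seen at the highest counts, where 3 regions were higher in D2 and 24 higher in D2-13B6. Without D2 replicate 1, 371 were called (322 and 49), and without D2 replicate 2, 971 (869 and 102). Each of these fits leaves 1 D2 library, which is assumed to vary like the other lines. Without D2-13B6 replicate 1, which differed from the other 2 libraries of its line more than they did from each other, 1778 were called (1308 and 470), without D2-13B6 replicate 2, 765 (648 and 117), and without D2-13B6 replicate 3, 913 (728 and 185).

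**Figure D3:**
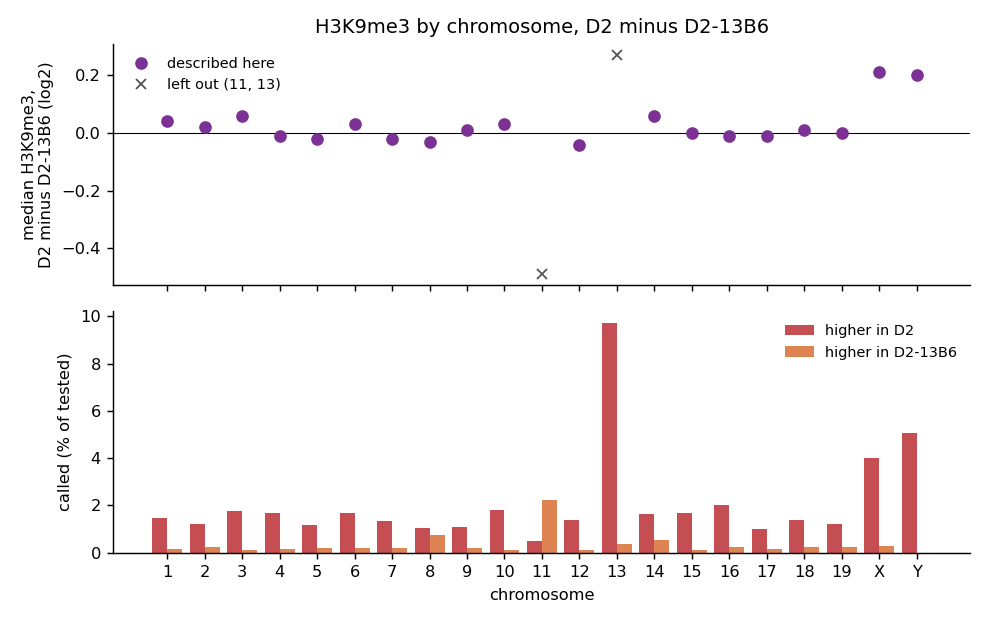
Median H3K9me3 log2 difference per chromosome (upper panel) and percent of tested regions called in each direction (lower panel). Chromosomes 11 (-0.49) and 13 (0.27) stand apart from the other autosomes (-0.04 to 0.06); X (0.21) and Y (0.20) also lie above them.

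Across chromosomes the kept autosomes had medians of -0.04 to 0.06, so no further autosome shifted as a whole. Chromosome X had a median of 0.21 for H3K9me3 and -0.31 for H3K27ac, with 56 of its 1403 tested regions higher in D2 and 4 higher in D2-13B6 (4.28% called, against 1.72% overall). It had 169 of the 2216 holders, and 44 of its 56 regions higher in D2 were holders. Chromosome Y had a median of 0.20 over 99 regions. Whether the sex chromosomes' copy number or chromatin differed between the lines was not tested. Chromosome 8 held 34 of the 176 regions higher in D2-13B6, with 4625 of the 76007 tested regions. The stem cell label was checked on H3K27ac at start sites: all 12 embryonic stem cell markers had a region, with a summed level of 1130 to 1240 CPM in D2 and 1210 to 1300 in D2-13B6, led by Dppa5a and Pou5f1, while Esrrb and Fgf4 were near 1 CPM in both. Markers of feeder fibroblasts (7 of 10 with a region) summed to 45.1 to 47.7 in D2 and 22.7 to 47.3 in D2-13B6. Those of primitive endoderm (5 of 9) summed to 38.6 to 41.3 and 36.1 to 41.9, of trophoblast (4 of 4 off chromosomes 11 and 13) to 16.9 to 18.5 and 21.7 to 22.9, of two-cell-like cells (2 of 3) to 3.86 to 4.39 and 3.46 to 4.16, and of formative cells (5 of 5) to 26.9 to 27.6 and 30.6 to 46.2. No marker with a region was at 0, and the part of other cells in the results was not tested.

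The called sets differed in what they cover. Regions higher in D2 were narrower than tested regions (median 605 against 818 bp), 85.5% masked against 20.6%, and richer in CpG at 36.4 per kb against 16.2, and 36 of them (3.18%, against 11.8%) lay within 1 kb of a gene's start. Regions higher in D2-13B6 were wider, at 1136 bp, with 21.0% masked and 12.9 CpG per kb, near the tested regions in both, and 20 of the 176 (11.4%) lay at a start. Set side by side in level, the median region higher in D2 had 19.7 and 16.3 CPM in D2, 6.30, 5.23 and 5.62 in D2-13B6, 12.9 to 13.8 in B6, and 16.4 and 17.6 in B6-13D2. The median region higher in D2-13B6 had 5.37 and 6.20 CPM in D2, 19.8, 16.4 and 18.3 in D2-13B6, 13.3 to 15.2 in B6, and 8.21 and 7.45 in B6-13D2.

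H3K27ac was called in the opposite direction at most regions higher in D2 and at a minority of those higher in D2-13B6. Of 1098 regions higher in D2 with enough H3K27ac reads, 825 (75.1%, against 8.50% of all tested regions) were called lower in D2 for H3K27ac, 2 were called higher, and the median log2 difference was -2.11. Of 167 regions higher in D2-13B6, 36 (21.6%) were called higher in D2, where 2.00% of all were, 3 were called the other way, and the median was 0.29. The median region higher in D2 held 1.06 and 1.14 CPM of H3K27ac in D2 and 5.69 and 4.83 in D2-13B6. By size of the H3K9me3 difference, with no test of a trend, an opposite H3K27ac call was made at 39.4% of the 33 regions below 1 on the log2 scale, 68.5% between 1 and 1.5, 82.3% between 1.5 and 2, and 78.1% above 2, of those higher in D2, with counts per region falling over the same steps. Opposite calls in both directions together, 861, fell to 272 without D2 replicate 1, 562 without D2 replicate 2 and 531 without D2-13B6 replicate 2 of H3K9me3.

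Well covered regions with the largest differences included 5 holders of the sequence, and the first of these was the intergenic region 482 kb from Adgrl3, an adhesion G protein-coupled receptor gene. At chr5:82307290-82308728 H3K9me3 was 43.9 and 36.4 CPM in D2 and 7.20, 8.96 and 4.21 in D2-13B6, a log2 difference of 2.56 ± 0.31 (SE) with an edgeR adjusted p of 4.95e-11. The lines did not overlap, and the mean in D2 was 5.90 times that in D2-13B6. H3K27ac there was 1.33 and 1.70 CPM against 9.56 and 8.05, a log2 difference of -2.56. The intron of Alpk1, a kinase that senses bacterial sugar metabolites, had the largest H3K27ac difference among the named regions. At chr3:127772138-127773005 H3K9me3 was 35.8 and 30.2 CPM in D2 and 1.80, 8.96 and 9.83 in D2-13B6 (log2 2.18 ± 0.33), and H3K27ac was 1.11 and 0.796 against 24.1 and 22.8 (log2 -4.53 ± 0.23).

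The other holders among them had like values. At chr5:68220159-68220532, 53.8 kb from Grxcr1, a gene of the sensory hair bundle, H3K9me3 was 35.8 and 28.7 CPM in D2 and 0.899, 5.98 and 11.2 in D2-13B6, with H3K27ac at 4.61 and 4.09 against 24.3 and 20.9. At chr14:122776398-122777848 in an intron of Pcca, which encodes a subunit of propionyl-CoA carboxylase, H3K9me3 was 35.8 and 36.4 against 10.8, 7.47 and 4.92, and H3K27ac 2.17 and 2.39 against 25.4 and 20.8. At chr1:178503579-178504694, 19.1 kb from Efcab2, H3K9me3 was 34.9 and 31.0 against 4.50, 5.98 and 9.83, and H3K27ac 1.33 and 0.796 against 3.25 and 3.22. The lines did not overlap in either mark at these 3 regions.

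Of the 8 largest differences toward D2, 3 lay at regions without the 18 bases or the longer stretch. At chr8:36153919-36156337, in an exon of the non-coding gene Gm38414, H3K9me3 was 37.6 and 41.1 CPM in D2 and 3.60, 4.48 and 8.43 in D2-13B6. The log2 difference was 2.78 ± 0.32 with an edgeR adjusted p of 4.39e-12, and H3K27ac did not pass the test there (log2 -0.39, adjusted p 0.191). At chr10:120521380-120524401, 44.9 kb from Hmga2, which encodes an architectural chromatin protein, H3K9me3 was 46.5 and 38.0 against 3.60, 5.98 and 11.2. H3K27ac was high in both lines at this region, at 60.5 and 55.8 against 113 and 128 CPM. At chr7:15848989-15851080, 9.31 kb from the homeobox gene Obox6, H3K9me3 was 61.8 and 54.3 against 8.09, 14.2 and 14.0 (log2 2.22 ± 0.26), and H3K27ac 3.33 and 4.09 against 36.1 and 32.8 (log2 -3.24). All 8 kept their call in each alternative that gave a value.

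The region near Obox6 separated by chromosome 13 segment in all 4 lines. H3K9me3 there was 14.5, 13.7 and 12.5 CPM in B6 and 54.7 and 50.1 in B6-13D2, and H3K27ac was 39.2 and 44.4 in B6 and 1.26 and 1.48 in B6-13D2. In separate lines its H3K9me3 was 141 to 146 in D2 and 10.9 to 16.4 in B6. The 2 lines with a D2 segment thus had high H3K9me3 and low H3K27ac, and the 2 lines with a B6 segment the reverse.

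**Figure D4:**
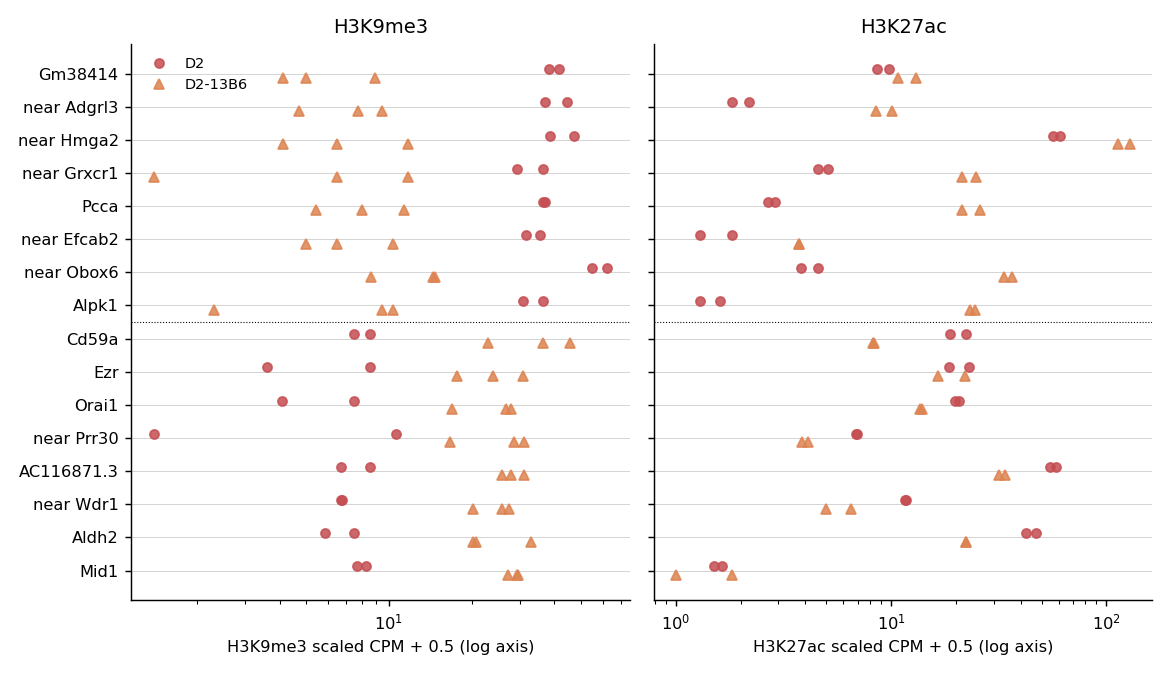
Scaled CPM plus 0.5 (log axis) of H3K9me3 and H3K27ac in each library of D2 and D2-13B6 (points) at the 16 regions with the largest differences among well covered called regions, 8 in each direction. The Alpk1 intron runs from 0.796 to 24.1 in H3K27ac, and the region labelled Ezr, which also overlaps Sytl3, has overlapping H3K27ac values in the 2 lines.

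The 8 largest differences toward D2-13B6 included the starts of Cd59a and Orai1. At chr2:104095512-104097708, the start of Cd59a, which encodes a complement inhibitor, H3K9me3 was 8.06 and 6.98 CPM in D2 and 45.0, 35.9 and 22.5 in D2-13B6, a log2 difference of -2.16 ± 0.34 with an edgeR adjusted p of 7.34e-07. H3K27ac there was 21.7 and 18.2 against 7.73 and 7.88 (log2 1.37). At chr5:123013385-123016447, the start of Orai1, the pore subunit of a store-operated calcium channel, H3K9me3 was 3.58 and 6.98 against 26.1, 16.4 and 27.4, and H3K27ac 20.2 and 19.4 against 13.2 and 13.5. The region chr17:6735940-6738128 overlapped coding sequence and the genes Ezr, which encodes the membrane-actin linker ezrin, and Sytl3. Which of these genes holds the coding sequence was not resolved. H3K9me3 there was 8.06 and 3.10 against 23.4, 17.2 and 30.2, while H3K27ac overlapped between the lines at 22.5 and 18.1 against 21.5 and 16.0. The call at Orai1 was lost without D2 replicate 1 and that at Ezr without D2 replicate 2.

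Others of this direction lay in an intron, in a pseudogene or between genes. In an intron of Aldh2, the mitochondrial aldehyde dehydrogenase, at chr5:121581777-121583106 H3K9me3 was 5.37 and 6.98 CPM in D2 and 32.4, 20.2 and 19.7 in D2-13B6, with H3K27ac at 46.6 and 41.7 against 21.9 and 21.9. At chr14:100749625-100751222, 446 kb from Prr30, H3K9me3 was 0.895 and 10.1 against 27.9, 30.6 and 16.2, and the call was lost without D2 replicate 1. At chr19:38386422-38388723, in the processed pseudogene AC116871.3 and 7.26 kb from Slc35g1, it was 8.06 and 6.20 against 25.2, 30.6 and 27.4, and at chr5:38597558-38599208, 34.3 kb from Wdr1, 6.27 and 6.20 against 25.2, 26.9 and 19.7. H3K27ac was called higher in D2 at these 3 regions as well, with log2 differences of 0.87, 0.80 and 1.04. None of the 8 regions of this direction held the 18 bases.

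In B6 background, 209 of the 1133 regions higher in D2 were also called higher in B6-13D2 than in B6 (18.4%, against 0.872% of all tested), and 3 were called the other way. Of the 176 regions higher in D2-13B6, 39 were also called higher in B6 (22.2%, against 0.441%) and 0 the other way. The 209 were 16.0% of the 1309 calls in D2 background and 20.9% of the 998 calls in B6 background (1.31% of tested regions), and the 39 were 2.98% and 3.91%. Without D2 replicate 1, 86 regions were called in both, and without D2 replicate 2, 160, against 248 with all libraries. No library of B6 or B6-13D2 was left out. H3K27ac was called opposite in D2 background at 115 of the 209, where 8.50% of all regions were higher in D2-13B6, and at 15 of the 39, where 2.00% were higher in D2.

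**Figure D5:**
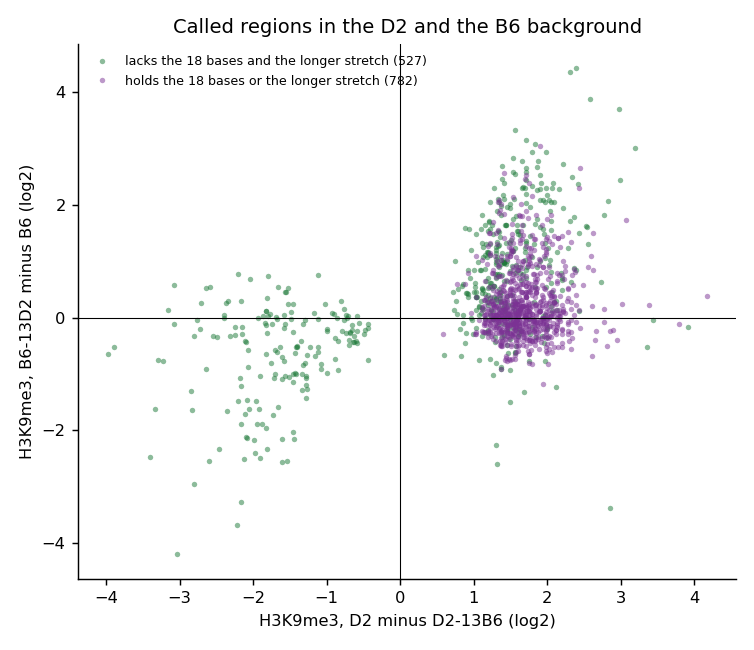
H3K9me3 log2 difference in D2 background (x axis, D2 minus D2-13B6) against that in B6 background (y axis, B6-13D2 minus B6) for the 1309 called regions (points), coloured by whether they hold the 18 bases or the longer stretch. Called holders of the 18 bases have a median of 0.11 on the y axis, and regions higher in D2 without either sequence a median of 0.84.

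Regions called higher in D2 that lack the 18 bases and the longer stretch, 351 in all, differed from the holders in these other readouts. Their H3K9me3 median was 8.90 ± 0.211 CPM in B6 (SD, n = 3) and 16.6 ± 0.354 in B6-13D2 (SD, n = 2), a median log2 difference of 0.84 with 131 called in the same direction. For the 662 called holders the same median was 0.11, with 72 called. In separate lines the 351 regions stood at 28.0 ± 1.82 in D2 and 7.73 ± 0.419 in B6 (SD, n = 3 lines each), and 249 of 307 were called higher in D2, where 16.3% of all were. Of the called holders, 140 of 606 were. H3K27ac differed less at the 351, with a median of -0.49 and 121 of 332 called higher in D2-13B6, and 35 of them lay at a gene's start, where 0 of the called holders did. These contrasts between the 2 sets are counts and medians with no test.

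The regions with the largest difference in the smaller of the 2 backgrounds were of low count. The largest toward D2 lay at Cwf19l2 (chr9:3447825-3448053), where H3K9me3 was 14.3 and 10.9 CPM in D2 and 0.899, 0.747 and 2.11 in D2-13B6, with a log2 difference of 3.19 in D2 background and 3.01 in B6 background. The next were a region 3.84 kb from Itgb2, the leukocyte integrin beta subunit (2.98 and 3.71), an exon of the non-coding Gm14323 (2.99 and 2.45), and an intron of Micu3, a regulator of mitochondrial calcium uptake (2.45 and 2.66). Only the region in Micu3 held the 18 bases. Toward D2-13B6 the first overlapped coding sequence and the genes Gsdme, which encodes a pore-forming gasdermin, and Mpp6. At chr6:50196338-50197829 H3K9me3 was 0 and 3.88 in D2, 28.8, 12.7 and 13.3 in D2-13B6, 28.7 to 37.3 in B6, and 2.05 and 1.35 in B6-13D2. H3K27ac at this region was 4.17 and 4.09 in D2 and 1.63 and 1.72 in D2-13B6. The others lay in an exon of Mycbp2, a ubiquitin ligase (-2.81 and -2.96), an intron of Plekha7, a junction protein (-2.60 and -2.54), and the untranslated region of Gas2l3, a cytoskeletal linker (-3.40 and -2.47). The calls near Itgb2 and at Micu3, Mycbp2 and Plekha7 were lost without D2 replicate 1, and those at Micu3, Mycbp2 and Plekha7 also without D2 replicate 2. Those at Micu3 and Plekha7 were lost without 4 of the 5 libraries in turn.

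Gene starts called in the same direction in both backgrounds were examined after the values were seen. Cdkn1a, which encodes the cell cycle inhibitor p21, had H3K9me3 at 28.6 and 31.8 CPM in D2 and 8.99, 10.5 and 8.43 in D2-13B6, 16.0 to 19.2 in B6, and 43.8 and 36.6 in B6-13D2. Its H3K27ac was 62.3 and 59.1 in D2, 91.0 and 106 in D2-13B6, 63.8 and 77.2 in B6, and 29.3 and 25.2 in B6-13D2. Gja1, which encodes the gap junction protein connexin 43, had 42.1 and 30.2 in D2 against 8.09, 10.5 and 13.3 in D2-13B6 for H3K9me3, with a log2 difference of 1.72. At Fam91a1 (2.04), Tbc1d31 (2.00), Dut, the dUTPase gene (1.58), Chrna5, a nicotinic receptor subunit (1.43), Mia3 (1.21), Slain1 (1.19) and Mon1b (1.10) H3K9me3 was called higher in D2, and H3K27ac did not pass the test in D2 background. In B6 background H3K27ac at Mia3 was called higher in B6-13D2 (log2 1.02), the same direction as its H3K9me3. Sf3b6, a splicing factor gene (-2.13), and Helt (-0.99) were called higher in D2-13B6 without an H3K27ac call in D2 background. In B6 background H3K27ac at Sf3b6 was called higher in B6-13D2 (log2 0.52), opposite to its H3K9me3. Scara5, a ferritin receptor gene (-1.95), had H3K27ac called higher in D2 (1.52). The H3K9me3 calls at Chrna5, Tbc1d31, Slain1, Mia3, Mon1b, Helt and Scara5 were lost without D2 replicate 1 (those at Mia3, Mon1b, Helt and Scara5 also without at least 1 other library), and that at Sf3b6 without D2 replicate 2.

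In separate lines, the regions higher in D2 had higher median levels in D2 strains too. H3K9me3 there was 21.4, 21.2 and 23.3 CPM at the median region in the 3 D2 lines and 12.3 to 13.1 in the 3 B6 lines, and 405 of 1014 (39.9%, against 16.3%) were called higher in D2 and 8 higher in B6. Of the regions higher in D2-13B6, 68 of 123 (55.3%, against 17.8%) were called higher in B6 and 15 higher in D2. The line D2 5-5 recurs in this set, and it was the highest of the 3 D2 lines at 23.3% of regions higher in D2, where it was highest at 35.1% of all tested regions. The high level of these regions was thus seen in D2 lines other than D2 5-5.

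Neighbouring called regions were few. The 1133 regions higher in D2 fell into 987 stretches when joined within 10 kb, of which 877 held 1 region, and the 176 into 150, of which 135 held 1. A stretch at chr3:6298942-6305733, 310 kb or more from 1700008P02Rik, held 6 called regions, each with H3K27ac called higher in D2-13B6, and the H3K9me3 calls of 5 of the 6 were lost without D2 replicate 1 and of 5 without D2 replicate 2. At its widest region H3K9me3 was 18.8 and 20.2 CPM in D2 and 6.30, 7.47 and 7.02 in D2-13B6, and H3K27ac 2.83 and 2.39 against 22.3 and 21.8. A stretch within Filip1 (chr9:79896199-79902714) likewise held 6 called regions, with log2 differences around a median of 1.95 and each with the opposite H3K27ac call. In introns of Snd1 (chr6:28488900-28512004), which encodes a staphylococcal nuclease domain protein, 5 regions were called higher in D2, and none had an H3K27ac call in the opposite direction. H3K9me3 there was 34.9 to 38.5 CPM in D2 replicate 1 and 3.88 to 10.9 in D2 replicate 2, against 16.2 or more in D2-13B6 replicate 1, and 1.49 to 6.72 and 2.11 to 7.73 in the other 2 D2-13B6 libraries, so D2 replicate 1 alone stood above all D2-13B6 libraries.

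Toward D2-13B6 a stretch of 5 on chromosome 8 (chr8:20512476-20525135) had high levels in all lines and small differences, of -0.68 to -0.59, none of them called without either D2 library. H3K9me3 at these regions was 78.8 to 106 CPM in D2 and 110 to 209 in D2-13B6. In Mid1 (chrX:169956185-169969804), a ubiquitin ligase gene that spans the pseudoautosomal boundary in C57BL/6J mice, 4 regions were called higher in D2-13B6, with log2 differences of -1.90 to -1.28, and all 4 were called higher in B6 than in B6-13D2. Without either D2 library the first of the 4 was no longer called. In separate lines these 4 regions were higher in D2 than in B6, by 3.01 to 3.78, the opposite direction. The same line, B6 5-1, was at 51.0 to 64.7 CPM over these regions in the repeated libraries and at 3.08 to 12.3 in the separate-line set, 2 tables that were scaled separately. The line D2 203 alone was at 106 to 247 at 3 of the 4. The line B6 5-1 thus differed between the 2 sets, and the cause was not tested.

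Of the 15 gene lists, 8 held called regions, 1 to 6 each, where 1.72% of all tested regions were called. At that share about 1 call falls to a list of 70 regions, so counts of 0 or 1 here are no result about a list. Within 5 kb of the 28 heterochromatin writers and readers off chromosomes 11 and 13, such as Setdb1 and Trim28, 0 of 70 tested regions were called, with a median log2 difference of -0.13 against 0.01 over all tested regions. The 20 naive pluripotency regulators had 0 of 70 and a median of -0.22, and the Hox genes 0 of 61. Genes of the germline programme had 1 of 58, at the shared start of Smc1b, a meiotic cohesin gene, and Ribc2, with H3K9me3 at 24.2 and 19.4 CPM in D2 and 10.8, 9.71 and 9.83 in D2-13B6 (edgeR adjusted p 0.0432), a call lost in 11 of 12 alternatives. Imprinted genes had 1 of 121, in an intron of Sfmbt2, a Polycomb-related gene (log2 1.92), which held the 18 bases. Families of Obox, Skint, killer lectin and Speer genes had 0 of 3, 25, 13 and 10.

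Calls at clustered receptor families were near the share of all regions, and each was toward D2 with the opposite H3K27ac call. Olfactory receptor genes had 6 of 291 regions called (2.06%, against 1.72% overall) and vomeronasal receptor genes 3 of 136 (2.21%). Near Olfr39 H3K9me3 was 25.1 and 25.6 CPM in D2 and 5.40, 5.23 and 4.92 in D2-13B6, and H3K27ac 1.06 and 0.796 against 7.32 and 6.44. Regions near Olfr126 and Olfr1271 had log2 differences of 2.22 and 1.59, and all 3 held the 18 bases. At Vmn2r24 the values were 23.3 and 18.6 against 6.30, 5.98 and 4.92, and near Vmn1r30 and Vmn2r44 the differences were 2.01 and 1.38. Sulfotransferase (Sult) genes had 1 of 43 regions called (2.33%), at the start of Sult2a4 (1.83) with the longer stretch. Cytochrome Cyp2 genes had 1 of 83 (1.20%), in Cyp2c38 with the 18 bases (1.24), a call lost in 10 of 13 alternatives. Zfp genes, of the zinc finger family that includes recruiters of TRIM28, had 3 of 902 regions called (0.333%), 2 of them higher in D2, near Zfp820 (1.61) and at the starts of Zfp617 and Zfp882 (1.22), and 1 higher in D2-13B6, in an intron of Zfp423 (-1.35). The protocadherin cluster had 1 of 102, in Pcdha1, higher in D2-13B6 (-1.4). Among these list regions only those near Olfr39 and at Vmn2r24 kept their call in every alternative that gave a value.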

How the data were processed

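Chromatin immunoprecipitation reads of 75 bp were counted by the authors in regions of a shared list, and the deposited tables hold raw counts per region and library. The submitters' processing notes name Trimmomatic 0.39, HISAT2 2.2.1, MACS 1.4.2, bedtools 2.9.2, edgeR and the build mm10. Cells were fixed with 1% formaldehyde and digested with MNase, per the labels' protocols. Each column was tied to its sample through the labelled library name, and 2 value columns matching no sample were not used.

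From the deposited counts, edgeR 4.0.16 (TMM scaling, default expression filter, quasi-likelihood F-test, Benjamini-Hochberg over all 86874 tested regions, called under 0.05) was fitted over all 10 repeated H3K9me3 libraries of the 4 lines. H3K27ac was fitted the same way after libraries of a line that differed by less than sampling noise were summed and counted as 1 sample, leaving 2 samples per line. The separate lines were fitted alone. Genes, exons, untranslated regions and start sites came from a GENCODE annotation, matched to regions with GenomicRanges 1.54.1. Masking, CpG and sequences were read from the RefSeq GRCm38.p6 genome. Named regions were the 8 largest differences in each direction among called, non-overlapping regions with a mean of at least 20 counts, at most 1 per 100 kb. To these were added the 4 largest in each direction with the opposite H3K27ac call, the 4 largest in both backgrounds, up to 3 within 5 kb of the genes of each list, and 2 runs in each direction, of which 1 run is not reported here. The stretches in Filip1 and Snd1 were outside this rule and chosen after its values were seen. Members and lists were chosen with earlier results of these data known, and the 18-base search and the start sites were added after seeing the data. Alternatives covered scaling, count filters, DESeq2 1.42.0, a replicate block, libraries left out and chromosomes X and Y left out. The spread behind p-values of the 4 repeated lines is that between technical libraries of 1 line, and behind those of the separate lines that between lines.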

Additional observations from a re-analysis of the deposited data

Results flagged for a closer look

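Groups of 2 or 3 libraries were not tested for single outlying values. What stood out was the difference between the 2 backgrounds, tested as an interaction term in edgeR's quasi-likelihood fit over the 10 H3K9me3 libraries: (B6-13D2 minus B6) minus (D2 minus D2-13B6). It was called at 207 of the 1133 regions higher in D2, all with the larger gap in D2 background, and at 4 of the 176 regions higher in D2-13B6, against 0.338% of all tested regions. The comparison was chosen in D2 background, so a larger gap there is partly fixed by that choice.

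Among named regions, those near Adgrl3 (-1.66, adjusted p 0.0272), Grxcr1 (-2.73, 8.12e-06) and Efcab2 (-1.55, 0.0452) and in the Alpk1 intron (-2.16, 0.00083) passed this edgeR test. So did the region at the start of Sult2a4 (-2.23, 0.00224), those near Olfr39 (-1.99, 0.0278) and Vmn1r30 (-2.83, 0.0036), and 1 of the stretch on chromosome 3 (-2.36, 0.027). At the Alpk1 intron H3K9me3 was 24.7, 28.9 and 27.3 CPM in B6 and 24.6 and 29.8 in B6-13D2, with D2-13B6 alone at 9.83 or less.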

How the results depend on the processing

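Other scalings (relative log expression, library totals, and TMM from regions off chromosomes 11 and 13), a replicate block and leaving out X and Y kept every total within 1.5 times its value, with the split toward D2 unchanged in direction. The scalings moved the median of all regions tested off chromosomes 11 and 13 from 0.01 to between -0.03 and -0.02. Requiring a mean of 20 counts gave 645 calls (407 higher in D2), 123 in both backgrounds, 375 with the opposite H3K27ac call and 252 called holders. Requiring only 1 count in the 10 libraries left 84 higher in D2-13B6. The 5 libraries alone gave 840 (744 and 96), and no value for the B6 background. DESeq2 gave 379 (337 and 42), 62, 307 and 240 of these, with 44107 regions given no adjusted p. Leaving out 1 library gave 371 to 1778 calls, 322 to 1308 higher in D2, 49 to 470 higher in D2-13B6, 86 to 273 in both backgrounds, 272 to 916 with the opposite H3K27ac call, and 204 to 690 called holders. The holders' median stayed between 0.95 and 1.21 under all settings, and their H3K27ac calls between 1481 and 1640. Of 794 values of the 64 named regions under alternatives, 627 kept their call, 167 kept their direction only and 0 reversed. The cause was not tested.

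With the replicate number as a block, 1157 regions were called (990 and 167), 208 in both backgrounds, 768 with the opposite H3K27ac call, and 580 called holders with a median of 1.08. The labels say nothing that pairs equal numbers, and deviations of equal-numbered libraries correlated at 0.16 and 0.09 between D2 and D2-13B6 and at -0.05 to 0.05 between the other lines, so the number was taken as a number only. The median tested region holds 10 counts, so differences at most single regions were not detectable unless large.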
